A study of Homo sapiens with 12 samples.

Results

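The 9 genes described here encode transcription factors that set lung and endoderm lineage: NKX2-1, FOXA1, FOXA2, FOXA3, HNF4A, GATA6, SOX2, SOX9 and CEBPA. They were taken from a list of named lineage regulators, out of 20046 genes with a named probe on the array. No cut-off on measured values was used, but the list was chosen with earlier results of these data known. RNA was profiled on Illumina Expression BeadChips in 12 xenografts of H3122 cells in mice; H3122 is an established line of human lung adenocarcinoma with an EML4-ALK fusion. Ceritinib, an inhibitor of the ALK kinase, was given at 75 mg/kg (4 tumours), 87.5 mg/kg (3 tumours) or 100 mg/kg (3 tumours), and 2 tumours were controls. All 12 tumours came from the same cell line, and per the study's description treatment began once tumours were established. The treated tumours first shrank in a dose-dependent manner and later became resistant. No treated tumour is labelled as sampled before resistance, so an effect of the drug and an effect of resistance cannot be told apart. The sources used here do not name the agent given to the controls, the mouse strain or the time at which each tumour was taken.

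NKX2-1, also called TTF-1, is a homeobox factor that specifies lung and thyroid and keeps alveolar type II and club cells in their state, where it activates surfactant genes. FOXA1, FOXA2 and FOXA3 are forkhead pioneer factors that open chromatin in endoderm-derived epithelia, and in the lung FOXA1 and FOXA2 act with NKX2-1 at shared target genes. HNF4A and GATA6 are regulators of gut and liver programmes, and GATA6 also acts in lung epithelium. During lung development SOX2 marks the proximal airway and SOX9 the distal tips. CEBPA, a basic leucine zipper factor, acts in the maturation of alveolar type II cells.

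The promoters of NKX2-1, at both of its annotated starts, and of SFTPB are shown because NKX2-1 and FOXA factors are known to bind SFTPB, the surfactant protein B gene, and because NKX2-1 and SFTPB were both higher in treated tumours. Each sequence is the 250 bases before a transcription start, read 5′ to 3′ on the minus strand, from RefSeq on GRCh38.p14. Capitals mark matches, on either strand, to the NKX2-1 word GCNCTNNAG or to a FOXA word. The FOXA words were TGTTTAC, the same word with T as its last letter, and both of these with G as the second letter from the end. The windows are chr14:36520233-36520482 and chr14:36519557-36519806 for NKX2-1, and chr2:85668200-85668449 for SFTPB.
NKX2-1, upstream start: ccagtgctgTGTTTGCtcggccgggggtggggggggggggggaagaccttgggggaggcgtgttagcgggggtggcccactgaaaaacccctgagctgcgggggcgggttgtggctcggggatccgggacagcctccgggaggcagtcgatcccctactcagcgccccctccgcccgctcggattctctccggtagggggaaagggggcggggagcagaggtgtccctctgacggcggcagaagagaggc
NKX2-1, downstream start: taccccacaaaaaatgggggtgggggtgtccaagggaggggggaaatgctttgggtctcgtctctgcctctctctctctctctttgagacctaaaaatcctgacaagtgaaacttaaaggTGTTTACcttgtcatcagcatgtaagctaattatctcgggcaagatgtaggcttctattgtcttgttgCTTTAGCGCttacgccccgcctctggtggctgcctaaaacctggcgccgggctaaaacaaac
SFTPB: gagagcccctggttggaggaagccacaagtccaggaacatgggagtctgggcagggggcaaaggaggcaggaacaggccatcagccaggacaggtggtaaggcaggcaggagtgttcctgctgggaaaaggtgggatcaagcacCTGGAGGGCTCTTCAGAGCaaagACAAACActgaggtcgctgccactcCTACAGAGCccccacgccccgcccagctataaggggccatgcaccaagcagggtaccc

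The upstream NKX2-1 window held 1 FOXA match, which began 241 bases before the start. The downstream window held 1 FOXA match at 130 bases and 1 NKX2-1 match at 62 bases. The SFTPB window held 4 NKX2-1 matches, at 106, 99, 96 and 58 bases, of which the match at 99 overlapped those at 106 and 96, and 1 FOXA match at 83 bases that overlapped none of them. The other annotated SFTPB window, chr2:85668742-85668991, held 1 NKX2-1 match and 0 FOXA matches. Among other genes linked to NKX2-1 that rose, SCGB3A1 had 1 NKX2-1 match, and the windows of SFTPD, CTSH, ABCA3, MYBPH, LMO3 and LPCAT1 had 0 matches to either word. These words and the printed SFTPB window were chosen after that sequence had been read, so its matches are a description of a chosen example and support no link to the expression values. An earlier scan used CTCAAG for NKX2-1 and TGTTTNC for FOXA, held by 10.4% and 15.5% of promoters, and found 0 matches of either in the printed SFTPB window. With those words the other SFTPB window had 1 FOXA match, each NKX2-1 window 1 FOXA match, and MYBPH and LMO3 1 NKX2-1 match each. Over 35116 promoters of the same length, 14.3% held an NKX2-1 match, 13.3% a FOXA match and 1.54% both.

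Among the 9 genes, 7 had an entry in the promoter table, with 9 promoters in all. A FOXA match was in 5 of these 9 promoters, and an NKX2-1 match in 4. The promoters of FOXA1 and GATA6 held both, that of CEBPA held an NKX2-1 match at 201 bases, and 1 promoter of HNF4A a FOXA match at 127 bases. FOXA2 and SOX9 had no entry. With the words of the earlier scan, the FOXA1 promoter held 1 NKX2-1 match and 1 FOXA match. The promoters of FOXA3, HNF4A, GATA6, SOX2 and CEBPA then held 0 of either. These matches describe letters in a window and are not evidence of binding in these tumours.

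Of the 47323 probes, each array detected between 38% and 41.2%, and median signals per array lay between 134.5 and 147. On the first principal component (41.9% of the variance) the treated tumours lay between -10.1 and 29.9 and the controls at -54.3 and -52.8. On the second (17.6%), 1 tumour, replicate 2 of the 87.5 mg/kg group, had the value 39.7 and the remaining 11 lay between -25.9 and 18.9. EPCAM, KRT8 and CDH1, markers of epithelial cells, were detected on all 12 arrays. KRT18, another such marker, was detected in 1 of 10 treated tumours and 2 of 2 controls. PTPRC, CSF1R, COL3A1, PDGFRB, HBA1 and HBB, markers of white blood cells, stroma and red blood cells, were detected on 0 arrays by these human probes. Others of the 18 markers of stroma, vessels and blood cells gave signal. VWF, CDH5, CD68, AIF1, CD14, COL1A1, LUM and ACTA2 were detected on all 12 arrays and KDR on 10. Which cells, human or mouse, gave these signals was not tested. Whether every tumour grew in a separate mouse is not stated in the labels, so p-values measure the spread between these tumours.

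The arrays carried 12 probes named for 8 of the 9 genes, and 7 genes had a probe with a detection p below 0.01 in 2 or more tumours. HNF4A had no probe named for it in the annotation used, and is not analysed here. The single GATA6 probe was detected on 0 of 12 arrays. Values are normalized log2 signals, whose height depends on the probe, so levels are compared between tumours and not between genes.

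**Figure D1:**
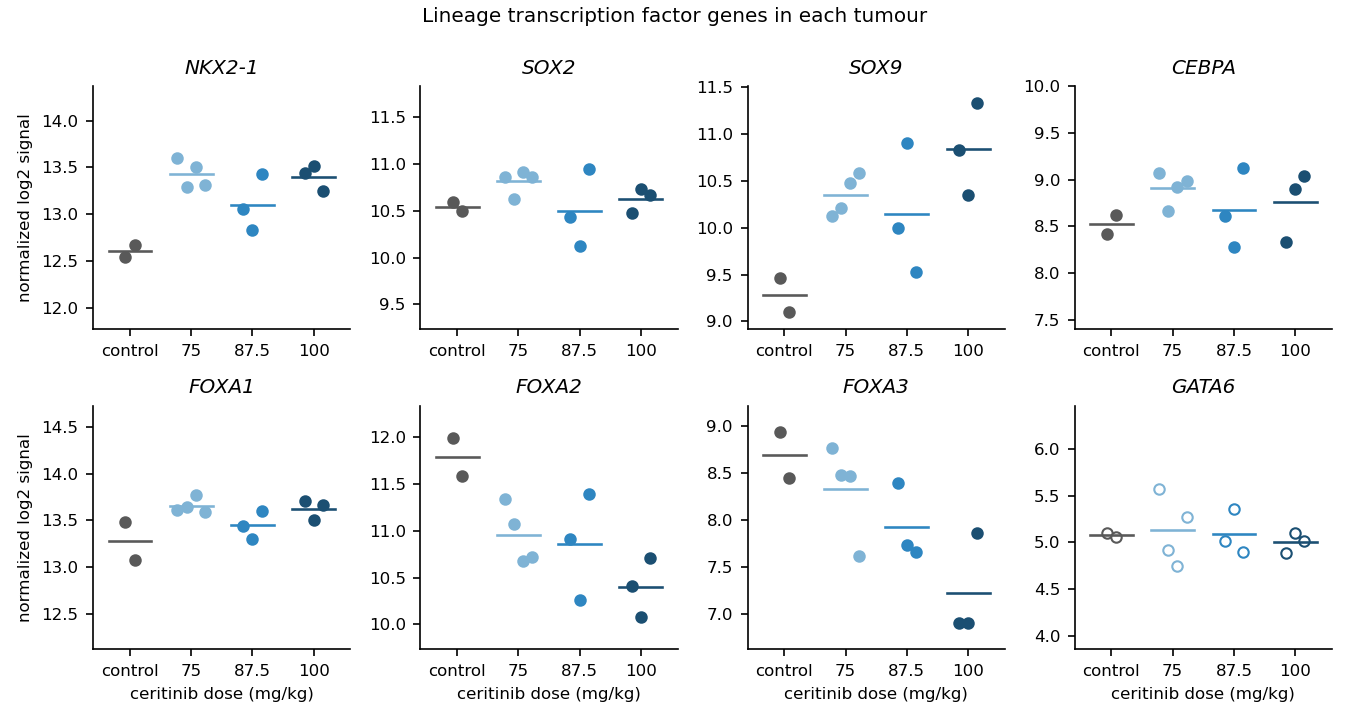
Normalized log2 signal of 8 lineage transcription factor genes in each tumour, by ceritinib dose, with horizontal lines at group means. Filled points are probes past the detection filter and open points, for GATA6, a probe detected on 0 arrays. NKX2-1 and SOX9 lay higher, and FOXA2 lower, in all 10 treated tumours than in both controls.

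In tumours under ceritinib, taken as the mean of the 3 dose groups, NKX2-1 and SOX9 rose and FOXA2 fell relative to controls. These 3 of the 7 tested genes passed an adjusted p of 0.05 in limma, against 18.8% of all 12300 genes tested. Of all genes 9.88% rose and 8.97% fell. FOXA1, FOXA3, SOX2 and CEBPA did not pass. The same 3 genes were the ones whose treated tumours all lay on one side of both controls, a separation shown by 22.5% of all genes. The median log2 difference was 0.26 over the 7 genes and 0.02 over all genes. In bulk tumour RNA, a change in the number of cells that express a gene and a change in RNA per cell cannot be told apart.

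NKX2-1 had log2 signals of 12.54 and 12.67 in the controls. It had 13.60, 13.29, 13.50 and 13.31 at 75 mg/kg, then 13.05, 12.83 and 13.43 at 87.5 mg/kg, and 13.44, 13.51 and 13.25 at 100 mg/kg. All 10 treated tumours were above both controls, with replicate 2 at 87.5 mg/kg the closest to them. Treated tumours averaged 13.32 ± 0.23 (SD, n = 10) and controls 12.61 ± 0.10 (SD, n = 2). The log2 difference was 0.70 (SE 0.15, adjusted p = 0.00802), a 1.63-fold higher signal. Without control replicate 1 the difference was 0.64 (adjusted p = 0.113), and without control replicate 2 it still passed (adjusted p = 0.0448).

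A second, dimmer NKX2-1 probe gave the same order of groups. It read 11.24 and 11.30 in controls, 12.05 to 12.56 at 75 mg/kg, 11.65 to 12.19 at 87.5 mg/kg and 12.04 to 12.30 at 100 mg/kg. In a fit over all 20889 detected probes, its log2 difference between treated tumours and controls was 0.83 (SE 0.17, adjusted p = 0.0069). Across the 10 treated tumours both probes moved together (Pearson r = 0.92, Spearman rho = 0.879, given as a description of 1 gene measured by a pair of probes). The gap between the probes stayed between 1.04 and 1.41 on the log2 scale in all 12 tumours.

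FOXA2, the forkhead factor that in mouse lung is needed for alveolar maturation and for restraint of mucous cells, fell. Its log2 signals were 11.99 and 11.58 in controls. They were 11.34, 11.07, 10.68 and 10.72 at 75 mg/kg, 10.91, 10.26 and 11.39 at 87.5 mg/kg, and 10.41, 10.08 and 10.71 at 100 mg/kg. No treated tumour reached either control, and the highest, replicate 3 at 87.5 mg/kg, was 11.39. Treated tumours averaged 10.76 ± 0.44 (SD, n = 10) and controls 11.79 ± 0.29 (SD, n = 2), a log2 difference of -1.05 (SE 0.27, adjusted p = 0.02), which is a 2.07-fold lower signal. The call was lost without either control (adjusted p = 0.228 without replicate 1 and 0.058 without replicate 2). This rests on 1 of the 3 probes named for FOXA2, the only one past the detection filter.

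FOXA1, the partner of FOXA2 in early lung development in mice, overlapped between groups. It ranged from 13.30 to 13.77 in the 10 treated tumours, and was 13.48 and 13.08 in the controls. Its log2 difference was 0.30 (SE 0.13, 95% interval 0.02 to 0.57, adjusted p = 0.126). FOXA3, the family member best known from liver and gut, had 8.94 and 8.45 in controls, 8.77, 8.48, 8.47 and 7.62 at 75 mg/kg, 8.39, 7.73 and 7.66 at 87.5 mg/kg, and 6.90, 6.90 and 7.86 at 100 mg/kg. The 100 mg/kg tumours were all below both controls, and the 75 mg/kg tumours overlapped them. Over all treated tumours FOXA3 differed by -0.87 (SE 0.32, adjusted p = 0.0846). That value passed with arrays scaled to 1 median (-1.03, adjusted p = 0.0426), on unnormalized signals (-0.83, adjusted p = 0.0147) and without replicate 3 at 100 mg/kg (-0.97, adjusted p = 0.0378).

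SOX9, the distal tip factor, rose. Its log2 signals were 9.46 and 9.10 in controls, 10.13, 10.21, 10.48 and 10.58 at 75 mg/kg, 10, 10.91 and 9.53 at 87.5 mg/kg, and 10.83, 10.35 and 11.33 at 100 mg/kg. All treated tumours were above both controls, but replicate 3 at 87.5 mg/kg, at 9.53, was close to control replicate 1. The treated mean was 10.44 ± 0.51 (SD, n = 10) and the control mean 9.28 ± 0.25 (SD, n = 2). The log2 difference was 1.17 (SE 0.31, adjusted p = 0.0234), a 2.24-fold higher signal. The call was lost without control replicate 1 (adjusted p = 0.101), without control replicate 2 (0.189) and on unnormalized signals (0.85, adjusted p = 0.0518).

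SOX2, the proximal airway factor, was measured by a pair of detected probes that did not give the same picture. The brighter one ranged from 10.13 to 10.95 in treated tumours, with controls at 10.59 and 10.50 inside that range. Its log2 difference was 0.10 (SE 0.17, 95% interval -0.28 to 0.48, adjusted p = 0.727), and its sign turned with arrays scaled to 1 median (-0.04) and on unnormalized signals (-0.12). The dimmer probe had 9.39 and 8.13 in controls, 8.62, 7.94, 8.65 and 8.26 at 75 mg/kg, 8.25, 7.68 and 8.92 at 87.5 mg/kg, and 7.46, 7.32 and 7.53 at 100 mg/kg. At 100 mg/kg all 3 values were below both controls and below every tumour of the lower doses.

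In the fit over all probes, the dimmer SOX2 probe differed by -1.33 at 100 mg/kg (SE 0.39, adjusted p = 0.0344), and the brighter one by 0.08 (adjusted p = 0.823). Over all doses the dimmer probe differed by -0.73 (SE 0.33, adjusted p = 0.162). The gap between the probes on the log2 scale was 1.2 and 2.37 in controls, 2.24 to 2.68 at 75 mg/kg, 2.03 to 2.44 at 87.5 mg/kg and 3.03 to 3.41 at 100 mg/kg. The controls themselves differed by more than 1 log2 unit on the dimmer probe. With the mean of both probes the difference of SOX2 between treated tumours and controls was -0.31 (adjusted p = 0.386). Whether the probes read different transcripts was not tested.

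**Figure D2:**
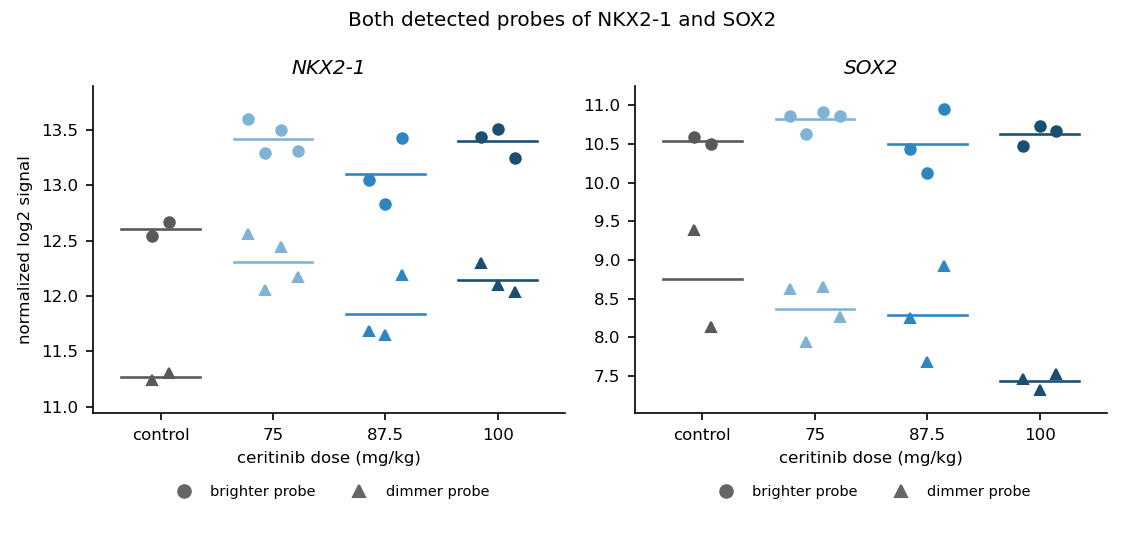
Normalized log2 signal of both detected probes of NKX2-1 and SOX2 in each tumour, by ceritinib dose, with lines at group means. Circles are the brighter and triangles the dimmer probe. The NKX2-1 probes kept a gap of 1.04 to 1.41, while the SOX2 gap was 3.03 to 3.41 at 100 mg/kg and 1.2 to 2.68 elsewhere.

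CEBPA ranged from 8.28 to 9.12 in treated tumours, and was 8.42 and 8.62 in controls, so the groups overlapped. Its log2 difference was 0.26 (SE 0.22, 95% interval -0.22 to 0.74, adjusted p = 0.439). The interval holds both no change and a change as large as that of NKX2-1. GATA6 read between 4.75 and 5.57 over all 12 tumours, with a lowest detection p of 0.0701, so its signal was not above background and no fold is given.

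Each dose was then compared with the controls, which are the same 2 tumours each time. At 75 mg/kg, NKX2-1 alone of the 7 genes passed, against 14.5% of all genes called and 7.37% called higher. Its log2 difference was 0.82 (SE 0.17, adjusted p = 0.00811), a call lost without control replicate 1 (adjusted p = 0.0908). SOX9 differed by 1.07 (adjusted p = 0.0609), FOXA2 by -0.83 (adjusted p = 0.088) and FOXA1 by 0.37 (adjusted p = 0.0977). At 87.5 mg/kg, 0 of the 7 genes passed in limma, against 6.18% of all genes, and NKX2-1 (0.50, adjusted p = 0.127), FOXA2 (-0.93, adjusted p = 0.111) and SOX9 (0.87, adjusted p = 0.197) had unadjusted p-values under 0.05.

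At 100 mg/kg, 4 of the 7 genes passed, 2 higher and 2 lower, against 22.1% of all genes (11.9% higher and 10.2% lower). NKX2-1 (log2 0.79, SE 0.18, adjusted p = 0.0087) and SOX9 (1.56, SE 0.36, adjusted p = 0.011) rose, a 1.73-fold and a 2.94-fold higher signal. FOXA2 (-1.39, SE 0.32, adjusted p = 0.00993) and FOXA3 (-1.47, SE 0.38, adjusted p = 0.0173) fell, a 2.61-fold and a 2.77-fold lower signal. Without control replicate 1 only SOX9 of the 4 passed, with adjusted p of 0.0717 for NKX2-1, 0.0919 for FOXA2 and 0.133 for FOXA3. SOX9 did not pass without control replicate 2 (adjusted p = 0.0874), and FOXA3 did not pass without replicate 1 (0.0558) or replicate 2 (0.0578) at 100 mg/kg.

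**Figure D3:**
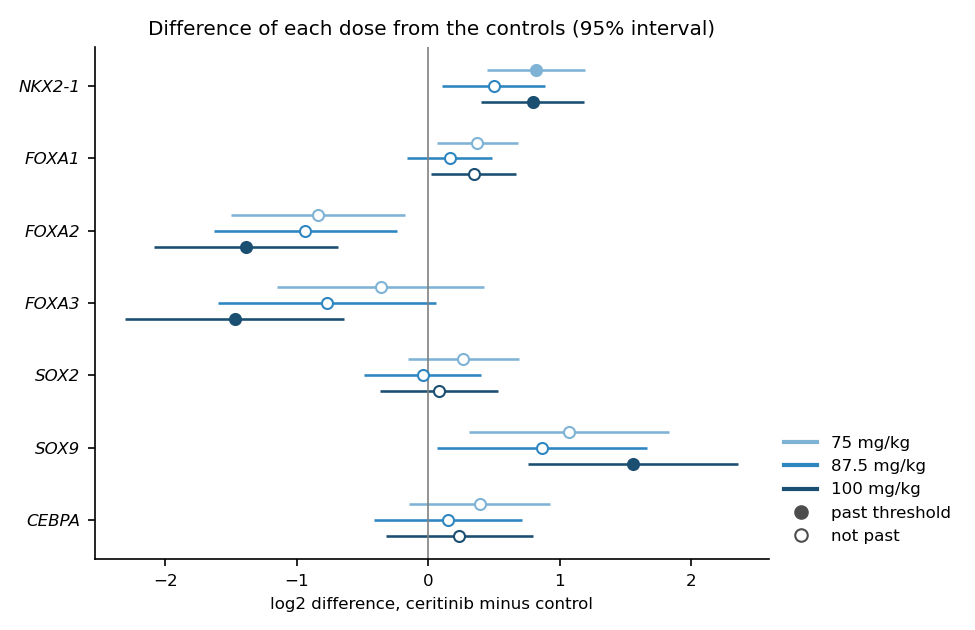
Log2 difference of each ceritinib dose minus control for the 7 tested genes, with 95% intervals, and filled points past an adjusted p of 0.05. The 3 doses share the same 2 control tumours. NKX2-1 passed at 75 and 100 mg/kg, and FOXA2, FOXA3 and SOX9 at 100 mg/kg.

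Between doses, 0 of the 7 genes passed in limma in any of the 3 pairs, and few other genes did. The share of all genes past the threshold was 0.667% for 100 against 75 mg/kg, 0.78% for 100 against 87.5 mg/kg and 0% for 87.5 against 75 mg/kg. The largest of these differences among the 7 genes was that of FOXA3, which was -1.11 at 100 against 75 mg/kg (SE 0.32, 95% interval -1.81 to -0.42, unadjusted p = 0.00471, adjusted p = 0.124). It was the only one of the 21 differences, which use the brightest probe per gene, with an unadjusted p under 0.05. In the fit over all probes, the dimmer SOX2 probe differed by -0.93 at 100 against 75 mg/kg (unadjusted p = 0.0153, adjusted p = 0.187). At 100 against 87.5 mg/kg it differed by -0.85 (0.0325 and 0.276). The dimmer NKX2-1 probe differed by -0.47 at 87.5 against 75 mg/kg (0.0155 and 0.535). The remaining differences of these dimmer probes were not under 0.05. So the passing of FOXA2, FOXA3 and SOX9 at 100 mg/kg and not at 75 mg/kg does not show that these doses differ.

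Replicate 2 at 87.5 mg/kg, which stood apart, had the lowest NKX2-1, FOXA1, SOX2 (brighter probe) and CEBPA signals of the 10 treated tumours and the second highest SOX9. On the dimmer SOX2 probe this tumour read 7.68, above the tumours at 100 mg/kg (7.32 to 7.53). Without replicate 2 at 87.5 mg/kg, NKX2-1 passed at that dose (log2 0.63, adjusted p = 0.0482). FOXA2 and SOX9 then passed at 75 mg/kg (adjusted p = 0.038 and 0.0159), where their values did not move. Without replicate 3 at 87.5 mg/kg, SOX9 passed at 75 mg/kg (adjusted p = 0.0354) and FOXA2 at 87.5 mg/kg (adjusted p = 0.0402). What sets this tumour apart was not tested.

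Over the 10 treated tumours, the 7 genes form 21 pairs. After Benjamini-Hochberg adjustment over these pairs, 2 Pearson correlations passed in a permutation test with 100000 resamples (two-sided). SOX2 and CEBPA correlated at r = 0.891 (permutation p = 0.00058, adjusted 0.0122) and rho = 0.867 (permutation p = 0.00248, adjusted 0.0521). The value was 0.833 without the 2 tumours farthest from the median of SOX2, and 0.889 after dose means were removed. NKX2-1 and SOX2 correlated at r = 0.822 (permutation p = 0.00454, adjusted 0.0477) and rho = 0.673 (permutation p = 0.0389, adjusted 0.272). That r was 0.341 without the 2 tumours farthest from the median, so it rests on those tumours. NKX2-1 and SOX9, which both rose with treatment, correlated at r = -0.29 (permutation p = 0.413, adjusted 0.583) and rho = -0.285 (permutation p = 0.428, adjusted 0.692). Without replicate 2 at 87.5 mg/kg that r was -0.08. Over all 10 treated tumours it was -0.826 after dose means were removed. Both of these values are given without a test. Both passing pairs used the brighter SOX2 probe, and pairs with the dimmer one were not tested. The brighter and dimmer SOX2 probes correlated at r = 0.585 and rho = 0.661 over the 10 treated tumours, given as a description. All genes in the 21 pairs were read from the same arrays.

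The genes whose log2 signals were most like each factor over the 10 treated tumours are given as a description. For NKX2-1 they were C12orf76 (r = 0.975) and EIF2D (r = 0.974), among 12299 other genes. For SOX9 they were CANX (0.966) and GCSH (0.96), and for FOXA2 ZC3H4 (0.95) and PHACTR4 (0.939). The closest to SOX2 were MME (0.983) and SMYD3 (0.969), and to CEBPA ATP5MC2 (0.959) and NR3C2 (0.928). FOXA1 was closest to PGBD2 (0.974) and ITM2B (0.959), and FOXA3 to XKR6 and EPS8L1 (both 0.918). With so many genes and 10 tumours, high values arise for some gene with any pattern.

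Among 20 alveolar and airway genes known to be linked to NKX2-1, 15 were tested, 10 rose and 2 fell in treated tumours. Of all genes tested, 9.88% rose and 8.97% fell. The list was chosen with earlier results of these data known. The median log2 difference of its 15 tested genes was 1.05, against 0.02 for all genes. The surfactant genes SFTPB (log2 4.54, SE 0.30, adjusted p = 6.94e-06) and SFTPD (4.31, SE 0.26, adjusted p = 5.33e-06) rose, as did CTSH, the protease gene cathepsin H (2.35), and MYBPH, a known NKX2-1 target gene (2.13). SFTPB had log2 signals from 11.33 to 13.06 in the 10 treated tumours, and 8.31 and 7.83 in the controls, so the groups did not overlap. The secretoglobin gene SCGB3A1 (5.03), the transcription cofactor gene LMO3 (1.34), the phospholipid enzyme gene LPCAT1 (1.01) and the lipid transporter gene ABCA3 (1.05) also rose.

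LAMP3, a lamellar body gene, rose by 0.86, a call lost when control replicate 1 (adjusted p = 0.0718) or control replicate 2 (adjusted p = 0.203) was left out. PEBP4 passed as well, but was detected in 3 of 10 treated tumours and 0 of 2 controls, so no fold is given. ROR1, a receptor gene known as an NKX2-1 target, fell by 1.42 and SLC34A2, a phosphate carrier gene of type II cells, fell by 0.94 on the log2 scale. With control replicate 1 left out, adjusted p was 0.0584 for ROR1 and 0.17 for SLC34A2, and with control replicate 2 left out it was 0.0736 and 0.244. At 75, 87.5 and 100 mg/kg, 14.5%, 6.18% and 22.1% of all genes passed in either direction. By dose, 10 of the 15 rose at 75 mg/kg, 8 at 87.5 mg/kg and 11 at 100 mg/kg, and 1, 0 and 2 fell. Over the alternatives tried, between 8 and 12 rose and between 0 and 2 fell.

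**Figure D4:**
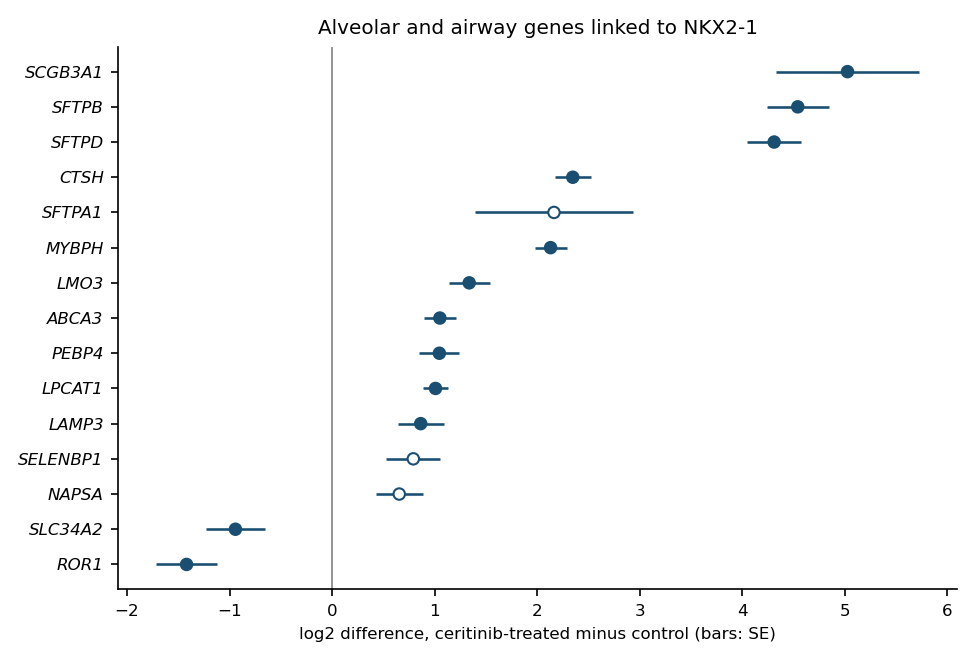
Log2 difference of ceritinib-treated minus control tumours for the 15 tested alveolar and airway genes linked to NKX2-1, with bars of 1 SE and filled points past an adjusted p of 0.05. SCGB3A1, SFTPB and SFTPD lay above 4, and SLC34A2 and ROR1 below 0.

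Of 59 relatives in the FOX, GATA, SOX, CEBP, HNF4 and NKX families, 27 were tested, 3 rose and 4 fell, with a median of 0.15. The share that passed was 25.9%, against 18.8% of all genes. FOXK1 (log2 1.06, SE 0.12, adjusted p = 0.000146), FOXN3 (0.80, adjusted p = 0.00129) and FOXO4 (0.81, adjusted p = 0.00799) rose. HNF4G, the paralogue of HNF4A, fell by 1.2 and was detected in 2 of 10 treated tumours and 2 of 2 controls. SOX18, a factor of endothelial cells, fell by 1.20 and was detected in 1 of 10 treated tumours and 2 of 2 controls. The sizes of both falls rest on treated signals mostly not above background. SOX13 fell by 0.91 and FOXJ1, the regulator of motile cilia, by 1.65. FOXK1 and FOXN3 kept their calls under all alternatives tried. The 4 falls were lost without control replicate 1, with adjusted p of 0.135 for HNF4G, 0.0616 for SOX18, 0.234 for SOX13 and 0.232 for FOXJ1. The FOXJ1 call was lost under 10 of the 22 alternatives, and FOXO4 did not pass without either control (0.0852 and 0.0641).

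Of 40 other transcription factor genes of airway and gut epithelium, 34 were tested, 4 rose and 4 fell, with a median of 0.11. The share that passed was 23.5%, against 18.8% of all genes. NR2F1, a nuclear receptor gene, fell by 2.37 (SE 0.27, adjusted p = 0.000181) and kept its call under all alternatives. KLF4 fell by 1.55 and ELF3 by 0.47 on the log2 scale. GRHL2 also passed (-0.70), but was detected in 3 of 10 treated tumours and 2 of 2 controls, so its size rests on signals mostly not above background. IRX5 rose by 1.11, ELF5, a factor of distal lung tips in mice, by 1.29, HOPX, a marker of alveolar type I cells, by 0.98, and NFIB by 0.62. Without control replicate 1, only IRX5 and NR2F1 of these 8 passed, and without control replicate 2 only HOPX and NR2F1. The ELF5 and GRHL2 calls were lost under 12 alternatives each.

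Of 31 stomach, gut and liver genes linked to HNF4A, 12 were tested and 0 passed in limma in either direction, with a median of -0.02. At an unadjusted p under 0.05, TF, GKN2, TFF3 and ALB were higher and CEACAM5 lower. TF and GKN2 were detected in 6 and 7 of 10 treated tumours and in 0 of 2 controls, so no fold is given for them. At 100 mg/kg GKN2 passed in limma (adjusted p = 0.0397). With replicate number as a block, 2 of the 12 genes fell in treated against control tumours. TFF3 differed by 0.55 (adjusted p = 0.102) and CEACAM5 by -0.79 (adjusted p = 0.109). Among 9 lung tip progenitor genes, of which 6 were tested, TESC rose in treated tumours (log2 4.86, SE 0.43, adjusted p = 3.63e-05). ETV4 (0.31) and ETV5 (0.32) did not pass. The share that passed was 16.7%, against 18.8% of all genes. At 100 mg/kg 3 of the 6 passed in limma, all higher, against 22.1% of all genes. They were TESC, ID2 (log2 1.14, adjusted p = 0.0298) and ETV4 (0.68, adjusted p = 0.0459). Among 11 basal and squamous genes, of which 5 were tested, KRT14 fell, a share of 20% against 18.8% of all genes. It was detected in 0 of 10 treated tumours and 2 of 2 controls, and was at least 2.81-fold lower. For that bound, undetected signals were set to the lowest detected signal of their array where lower. At 100 mg/kg TRIM29 fell too (log2 -1.98, adjusted p = 0.025 in limma), so 2 of the 5 passed, against 22.1% of all genes. TRIM29 was detected in 5 of 10 treated tumours and 2 of 2 controls.

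Genes used as markers of other cell types moved with treatment as well. The tumours grew from a human line in mice, and the probes are human. Whether these signals came from the tumour cells or from mouse cells was not tested. Of 18 stromal, vascular and blood cell markers, 11 were tested, VWF rose (log2 2.02) and LUM (-2.17), COL1A1 (-0.74) and COL1A2 (-1.01, detected in 3 of 10 treated tumours and 2 of 2 controls) fell. Without control replicate 1, 0 of these 4 passed, with adjusted p from 0.0695 (VWF) to 0.166 (COL1A1), and without control replicate 2 the 3 falls did not pass. The summed normalized signal of the 11 tested markers, on the log2 scale, was 12.87 to 13.48 in treated tumours and 12.71 to 13.25 in controls. Of 13 epithelial and adenocarcinoma markers SFTPB rose and KRT7, CDH1, KRT19, MUC1 and ELF3 fell, while EPCAM differed by 0.13 (adjusted p = 0.554). Of the 5 falls, only that of KRT7 passed without control replicate 1, and only those of KRT7 and KRT19 without control replicate 2. The share that passed was 36.4% of the stromal, vascular and blood cell markers tested and 46.2% of the epithelial ones, against 18.8% of all genes. The part of these marker shifts in the differences of the lineage factors was not tested. Of the 7 tested housekeeping genes, 0 passed in limma (4 at an unadjusted p under 0.05), with a median of -0.30. Of the 9 tested immediate early genes, 0 passed (2 at an unadjusted p under 0.05), with a median of -0.40.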

How the data were processed

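Per the labels' protocols, total RNA purified on columns was amplified into cRNA labelled with biotin, for Illumina Expression BeadChips. The authors deposited linear bead intensities without normalization, from 61.2 to 68257, in a text table and a value table. The text table also held a detection p-value per probe, per the file headers. Both tables hold the same signals in the same order, but their probe identifiers match at 1 of 47323 positions. Log2 signals of probes of 1 gene correlated at 0.421 under the value table's identifiers and at 0.0499 under the others, so the first were used, with detection p-values joined by row. Scanner software, slides and batches are not given in the sources used here. Columns of other samples numbered 0.

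The annotation of the array gave a single symbol for 30113 probes, several for 8 and none for 17202. The members and gene lists were chosen with earlier results of these data known, and 11 lists in all were read, the members included. Signals were corrected with negative controls inferred from detection p-values, then quantile normalized and log2 transformed (neqc, limma 3.58.1, offset 16; R 4.3.3, data.table version 1.17.8). The 20889 probes whose detection p was below 0.01 in 2 or more tumours were kept, and the brightest probe on average represented its gene (12300 genes, 3228 with several probes). The 4 groups were fitted together over 12 arrays with lmFit and eBayes, with Benjamini-Hochberg adjustment over all genes and a threshold of 0.05. Differences of treated tumours weight the 3 doses alike, while treated means weight tumours alike. The fit was tested on simulated data. Correlations used scipy 1.17.1 with numpy 2.4.6 and pandas 2.3.3, and figures matplotlib 3.10.9, in Python 3.11.15.

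Named genes were all members, up to 4 genes per list with the smallest p plus those that spell out a count, and the 2 genes most correlated with each member. Further list genes were picked with their values known. The promoter words of a first scan, which also held words for GATA, SOX, CEBP and HNF4 factors that are not described, were replaced after the SFTPB sequence had been read, and the text gives the NKX2-1 and FOXA matches of both scans. Alternatives changed the background step, the offset, the scaling, the filter on dim probes, the probe per gene, the variance model, the weighting of arrays and the groups fitted together. They also added replicate number as a block and left out each tumour in turn. The number of arrays limits the precision.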

Additional observations from a re-analysis of the deposited data

How the results depend on the processing

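The count of the 7 tested genes past the threshold in treated against control tumours was 3, between 0 (without control replicate 1) and 4 with each tumour left out, and 1 without control replicate 2. At 75 mg/kg it was 1, and 2 with median scaling, 2 on unnormalized signals, 3 with array weights and 3 with only the groups compared, and 0 to 3 with each tumour left out. At 87.5 mg/kg it was 0, and 1 with median scaling and 1 on unnormalized signals (FOXA2 in both), and 0 to 1 with each tumour left out. At 100 mg/kg it was 4, and 1 to 4 with each tumour left out. Between doses it stayed at 0 under every alternative run. The cause of these shifts was not tested, beyond the smaller number of tumours where one is left out. No past-threshold difference changed sign. Replicate numbers showed no clear pairing of the tumours. Residuals of same-numbered tumours correlated between -0.22 and 0.375 over 15 pairs (median -0.03). Different-numbered ones correlated between -0.39 and 0.386 (median -0.0065). The residuals were centred within groups of 2 to 4 tumours, so this check cannot exclude a pairing or a shared batch. With replicate number as a block, SOX9 in treated against control tumours did not pass (1.13, adjusted p = 0.0861) and 2 of the 7 genes did. The block left 975 genes at 75 mg/kg, 500 at 87.5 mg/kg, 2 for 100 against 75 mg/kg and 9 for 100 against 87.5 mg/kg.

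Counts of all genes past the threshold also moved. Treated against control tumours gave 2318, and 780 and 1277 without control replicates 1 and 2. At 75 mg/kg there were 1784, 2966 on unnormalized signals, and 653 and 1173 without control replicates 1 and 2. At 87.5 mg/kg there were 760, with 1784 on unnormalized signals, 1344 with array weights, 157 with only the groups compared, 236 without control replicate 1 and 469 without replicate 1 at that dose. At 100 mg/kg there were 2723, and 1435 and 1623 without control replicates 1 and 2. For 100 against 75 mg/kg there were 82, with 5 on unnormalized signals, 507 with array weights, 416 with only the groups compared and 0 to 331 with each tumour left out. For 100 against 87.5 mg/kg there were 96, with 30 without the detection filter, 428 with array weights, 1 with only the groups compared and 0 to 276 with each tumour left out. For 87.5 against 75 mg/kg there were 0 in limma (1036 at an unadjusted p under 0.05) and 0 to 3 with each tumour left out. Of the genes called in treated tumours 52.4% were higher, against 32% with median scaling and 18.8% on unnormalized signals, where the median of all genes moved to -0.11 and -0.16. Relative to those medians NKX2-1 stayed higher and FOXA2 lower. Signals near background, such as GATA6, limit what can be read of dim genes.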
